A study of Bos indicus with 8 samples.

Results

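GPKOW and 44 proteins of the spliceosome core were followed in bovine cumulus cells exposed to follicle-stimulating hormone (FSH). These 45 genes were chosen by symbol from the 15229 genes that the array annotation names. Each was represented by its brightest probe over all arrays and channels, and for GPKOW every probe is described. GPKOW was selected because it had the lowest unadjusted p for FSH against control in an earlier fit of the scanner values, so its values below describe why it was chosen and carry no test. The other 44 were selected as core components of the machinery that GPKOW belongs to. On the array, 42 of the 45 genes passed a limit for dim probes (2 SD over the average negative control), and the comparison with all genes used the 12328 genes that passed it.

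Cumulus cells are the somatic cells that surround the oocyte in the follicle, and FSH is the pituitary hormone that drives follicle growth. Cumulus-oocyte complexes were aspirated from follicles of 3 to 6 mm in slaughterhouse ovaries that the labels assign to Bos indicus. They were cultured for 6 h with recombinant human FSH at 0.5 µg/ml (FSH group) or without it (control group). Both groups held adenosine at 3 mM, 17β-oestradiol at 1 µg/ml, 10% fetal bovine serum, pyruvic acid at 0.2 mM and gentamicin at 50 µg/ml, so the FSH comparison was made only in the presence of adenosine. There were 4 pools per group. The labels call them biological replicates and give a number per pool of 10 without its unit, and nothing states that pools came from separate animals, so a p-value covers only the spread between these pools. The FSH and the control pool that carry one replicate number shared 2 arrays of opposite dye orientation, 8 arrays in all. A slide held 4 arrays of 1 orientation, so slide and dye cannot be told apart. Values are log2 ratios of FSH over control from the deposited table, averaged over the 2 arrays of a replicate, and n is 4 in the main fit. Alternatives with left-out replicates, single channels or the 8 arrays taken singly have another n. In such pools, fewer cells of a type and less RNA per cell cannot be told apart.

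The spliceosome removes introns from precursor messenger RNA in ordered steps carried out by small nuclear ribonucleoproteins (snRNPs), each built of a small nuclear RNA and proteins. The U1 snRNP marks the start of the intron, the U2 snRNP with U2AF marks the branch point and the intron's end, and the U4/U6.U5 tri-snRNP joins before the Prp19 complex and a series of ATP-dependent helicases drive activation and catalysis. GPKOW is a G-patch protein, the human counterpart of yeast Spp2, and in human cells it binds the helicase DHX16, the counterpart of yeast Prp2, which remodels the activated spliceosome before the initial cut. In cumulus cells FSH is best known for inducing expansion and steroid metabolism.

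Some pools stood apart from the others of their group. Across 12328 genes, the deviation of FSH pool 4 from the FSH mean correlated with the deviation of control pool 3 from the control mean (r = 0.735) and not with that of its own control pool (r = -0.0333). For FSH pool 3 and control pool 3, which shared arrays, r was 0.597. These correlations are across genes, which are no replicates. Whether the pools are numbered correctly or come from different batches was not tested, and the ratios of replicates 3 and 4 are given with the labels as deposited. Median spot signals ranged from 55.8 to 184.3 in Cy3 and from 26.6 to 59.0 in Cy5, and the control channel of replicate 3 had 46.3% and 33.9% of its probes above the limit, against ranges over all arrays of 42.5% to 78.8% in Cy3 and 33.9% to 86.4% in Cy5. Of 14 cumulus and granulosa markers, 13 passed the limit, and their summed level was 80556, 89755, 72330 and 71085 in FSH pools 1 to 4 and 93817, 86311, 85472 and 87688 in control pools. The median log2 ratio of these markers was 0.049, 0.0020, -0.36 and -0.66 in replicates 1 to 4, so they were low with FSH in replicates 3 and 4. In these replicates SF3B2, SF3B3 and PRPF8 were lowest, while SF3B1, CDC5L and SYF2 were lowest in replicate 2. All 17 oocyte markers passed, with summed levels of 2322 to 2425 in FSH pools and of 2350, 2346, 3784 and 2772 in control pools 1 to 4. Their median log2 ratio was 0.030, 0.022, -0.67 and -0.29 in replicates 1 to 4, also low in replicates 3 and 4. For theca, stroma and endothelium 10 of 11 markers passed, with sums of 14241, 15364, 9581 and 8282 in FSH pools and 16448, 14405, 8109 and 15745 in control pools. Of 9 immune markers 4 passed and CSF1R, LCP1 and TYROBP were above the limit on no array, with sums of 1368 to 2141 in FSH pools and 1408 to 2459 in control pools. Of 7 listed red blood cell markers 5 were on the array and 3 passed, with sums of 725 to 758 in FSH pools and 725 to 769 in control pools. Probes at background also add to such sums, since DHX38 and ISY1, which failed the limit, had log2 signals of 6.91 and 6.97 in FSH pools. The oocyte, immune and red blood cell sums therefore hold much background, and the size of a difference between pools cannot be read from them. The part of these markers and of pools 3 and 4 in the results was not tested. Values without replicates 3 and 4 are given beside members that they moved by over 1.5 times and whose mean exceeded 0.15 in size.

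The spliceosome genes gave no call. Of the 41 tested members other than GPKOW, 0 passed the limma test at an adjusted p of 0.05, with Benjamini-Hochberg adjustment over 12328 genes, as did 0.0% of all genes. The lowest adjusted p was 0.299 among these members and 0.270 among all genes. An unadjusted p under 0.05 was found for 8 members, 3 higher with FSH and 5 lower, or 19.5% of 41, against 11.4% of all genes (5.91% higher and 5.49% lower). Without replicates 3 and 4 the count was 3, beside 393 higher and 634 lower of 12328 genes. Without replicate 3 it was 5, beside 712 higher and 856 lower of 12328 genes. With all replicates these counts over all genes were 728 and 677. With the 8 arrays taken singly and the replicate block as a random effect, 1 of the 41 passed (SF3B2, adjusted p = 0.0476), against 1.86% of all genes. The mean ratio lay below 0 for 27 of the 41 members, against 49.4% of all genes, and above 0 for 14, against 50.6%. Their median was -0.083 against 0.0023 for all genes. By replicate the median of the 41 was -0.0028, -0.14, 0.030 and -0.099, so replicate 3 lay above 0. Over the 42 members with GPKOW, which was chosen for its low p in this contrast, the median was -0.085. Replicates 1 and 3 sat near 0 and replicates 2 and 4 carried most of the shift. Without replicate 2 the median of the 42 members with GPKOW was -0.016. All 4 replicates lay below 0 in 8 of the 41 members, against 9.07% of all genes, and above 0 in 3, against 11.5%. These counts cover only members that passed the limit for dim probes and describe the set.

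**Figure D1:**
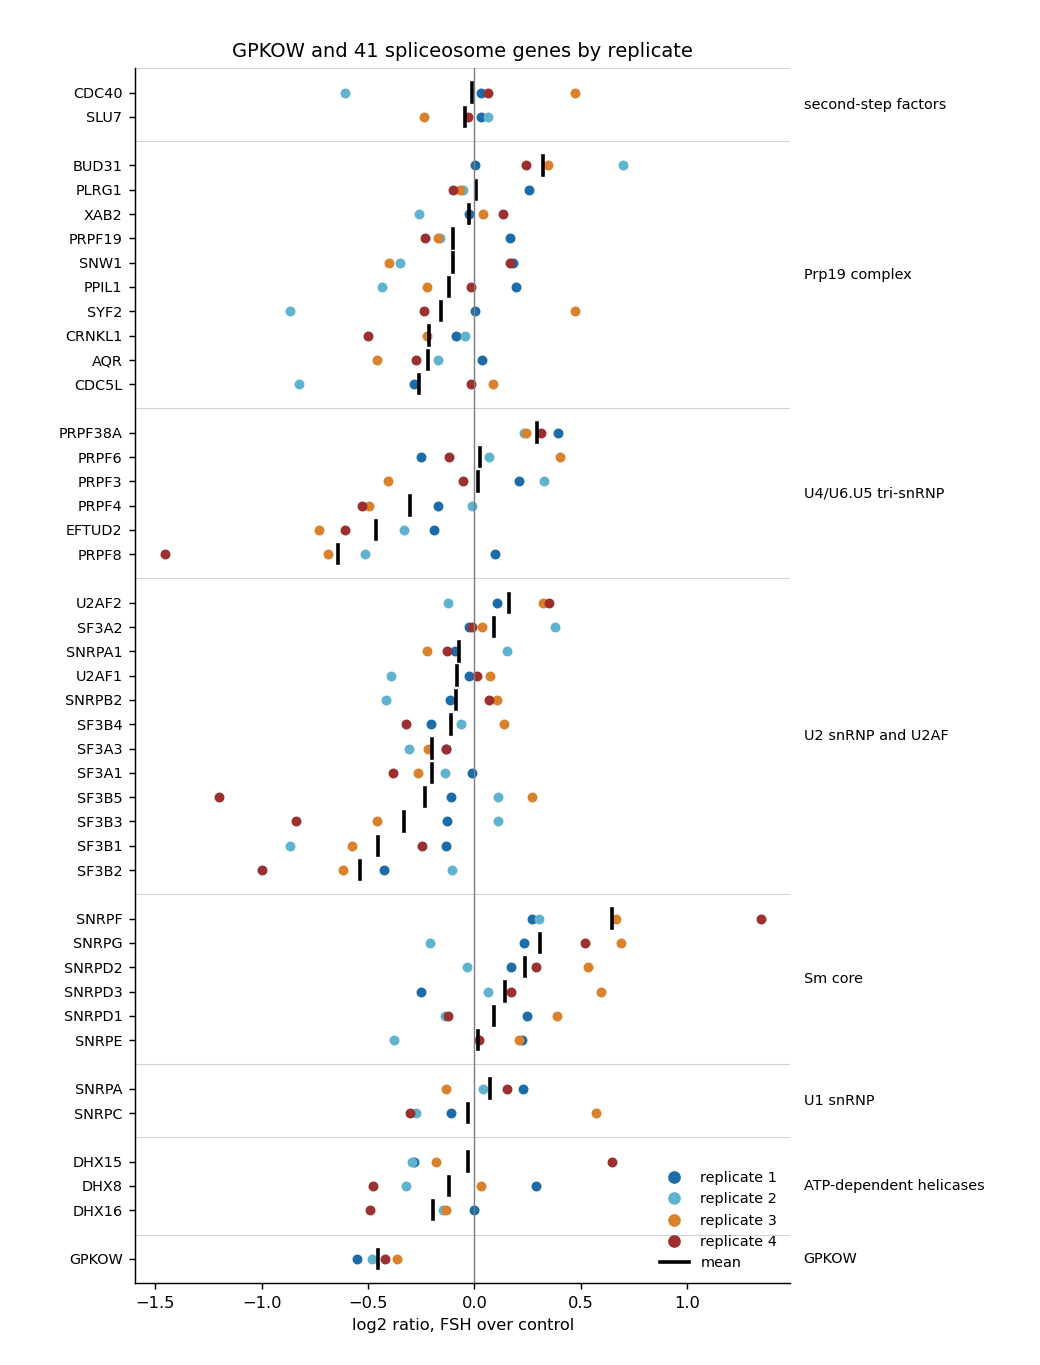
Replicate values of the 42 members that passed the limit, grouped by role. The horizontal axis is the log2 ratio of FSH over control, each point is 1 replicate (mean of 2 arrays) and the black bar is the mean of 4 replicates. GPKOW lies between -0.55 and -0.36, while SNRPF (mean 0.65) and PRPF8 (mean -0.64) mark the ends of the set and spread widely.

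GPKOW gave -0.55, -0.48, -0.36 and -0.42 in replicates 1 to 4 on its brightest probe. Its mean was -0.45 ± 0.081 (SD), a level with FSH of 0.730 times that of the control. All 4 replicates and 8 of 8 arrays lay below 0. The normalized log2 signal was 10.10, 9.97, 10.56 and 10.21 in FSH pools 1 to 4, and 10.60, 10.45, 10.98 and 10.67 in the control pools. Each FSH pool was below the control pool with its number, but the 2 groups overlapped, since FSH pool 3 lay above control pool 2. With FSH in Cy5 the arrays gave -0.41, -0.28, -0.29 and -0.28, while the opposite orientation gave -0.69, -0.67, -0.43 and -0.56. Slide means were -0.32 ± 0.062 and -0.59 ± 0.12, so the 2 slides did not overlap and differed by 0.27. Normalizing the scanner intensities anew gave -0.46, and leaving out replicates 3 and 4 gave -0.52.

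The other GPKOW probes were dimmer and their ratios smaller. Of 8 arrays, the next brightest probe exceeded the limit on 7 with its FSH signal and on 6 with its control signal. It gave -0.20, 0.037, -0.17 and -0.17, with a mean of -0.13 ± 0.11, so replicate 2 lay above 0. The remaining probe was above the limit on 4 and 6 of 8 arrays. It gave -0.25, -0.16, -0.093 and -0.19 with a mean of -0.18 ± 0.065, below 0 in all 4. The mean of all tested GPKOW probes was -0.25, and with the scanner values these dimmer probes gave -0.027 and -0.078.

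**Figure D2:**
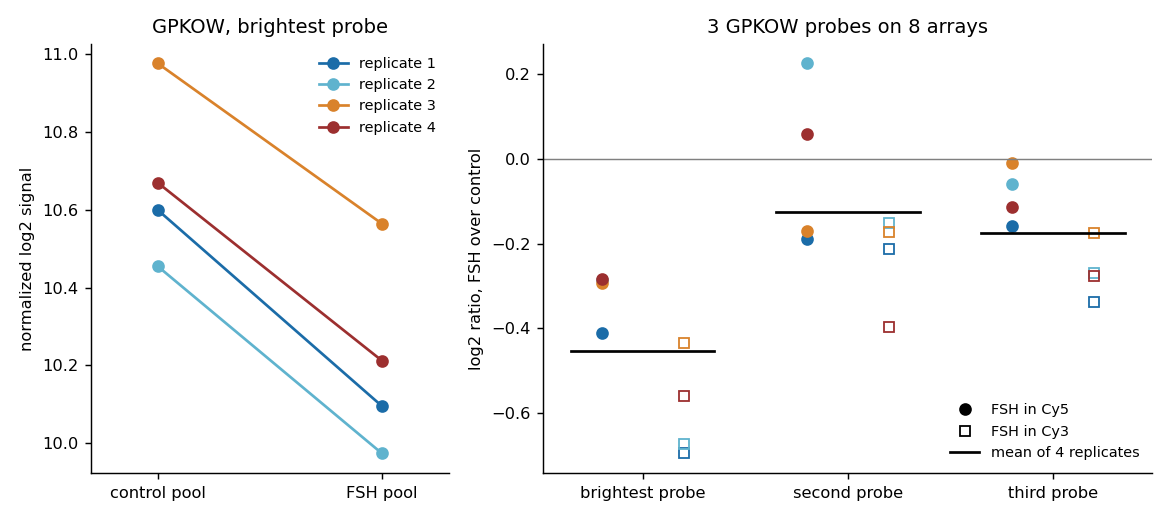
GPKOW by pool and by probe. On the left the vertical axis is the normalized log2 signal of the brightest probe, with a line joining the control and the FSH pool of each replicate. All 4 lines go down. On the right each point is the log2 ratio of FSH over control on 1 array, filled for FSH in Cy5 and open for FSH in Cy3. The bar is the mean of 4 replicates, which was -0.45, -0.13 and -0.18 for the 3 probes.

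The helicases next to GPKOW gave small means. DHX16, the partner of GPKOW in human cells, measured -0.0028, -0.15, -0.13 and -0.49 in replicates 1 to 4. All 4 were below 0, and replicate 4 was the lowest. The mean was -0.19 ± 0.21 (adjusted p = 0.542), with -0.18 and -0.20 on the 2 slides. It was -0.094 without replicate 4 and -0.075 without replicates 3 and 4. DHX8, the counterpart of yeast Prp22, which releases the spliced message, averaged -0.12 ± 0.35 with values on both sides of 0, and -0.0015 without replicate 4. DHX15, the counterpart of yeast Prp43, which takes the spent spliceosome apart, measured -0.28, -0.29, -0.18 and 0.65, a mean of -0.028 ± 0.45 (adjusted p = 0.970), and 7 of 15 other settings turned its sign. Replicate 4 stood apart. DHX15 signals were 11.77, 11.87, 12.93 and 12.89 in FSH pools and 12.001, 12.13, 12.89 and 12.23 in control pools, so FSH pools 3 and 4 and control pool 3 were the high ones. DHX38, the counterpart of yeast Prp16, which acts between the 2 catalytic steps, was not well above background, exceeding the limit on 0 of 8 arrays for FSH and 1 for control, and was not tested.

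The U1 snRNP proteins lay near 0. SNRPA (U1-A), which binds a stem-loop of U1 RNA, averaged 0.072 ± 0.16. It gave -0.17 on the Cy5 slide, named for the dye that carried FSH, and 0.31 on the Cy3 slide. SNRPC (U1-C), which helps U1 to grip the intron's start, averaged -0.029 ± 0.41, with 3 replicates below 0 and replicate 3 at 0.57.

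The Sm proteins form the ring around U1, U2, U4 and U5 RNA. The 6 Sm genes of the member set all had means above 0, against 50.6% of all genes. This held under both scalings of the scanner values, but only for 3 of 6 without replicate 3. SNRPB and SNRPN, Sm genes outside the member set, had means below 0. SNRPB averaged -0.14 ± 0.080 with all 4 replicates below 0, but gave -0.29 on the Cy5 slide and 0.017 on the Cy3 slide. SNRPN averaged -0.12 ± 0.24. None of the 6 member genes (0 of 6) passed the test, as did 0.0% of all genes. Of these 6, 1 (SNRPF) had an unadjusted p under 0.05, against 11.4% of all genes. SNRPF was the largest, with 0.27, 0.30, 0.67 and 1.35 in replicates 1 to 4. All 4 were above 0, as were all 8 arrays, and replicate 4 was far above the rest. Its mean was 0.65 ± 0.50 (adjusted p = 0.328), 1.57 times the control level. It was 0.37 with the scanner values, 0.41 without replicate 4 and 0.29 without replicates 3 and 4. SNRPF signals were 8.37, 8.37, 8.93 and 8.81 in FSH pools and 8.25, 8.24, 8.38 and 8.13 in control pools. The groups overlapped narrowly, since control pool 3 lay just above FSH pools 1 and 2. SNRPE was the smallest, with 0.22, -0.38, 0.21 and 0.020, a mean of 0.019 ± 0.28 (adjusted p = 0.972), and 3 of 15 other settings turned its sign. Between them lay SNRPD1 with 0.094 ± 0.27, SNRPD3 with 0.14 ± 0.35, SNRPD2 with 0.24 ± 0.24 and SNRPG with 0.31 ± 0.39. Without replicates 3 and 4 SNRPD2 gave 0.067 and SNRPG 0.010. The median over the 6 Sm genes was 0.23, -0.086, 0.57 and 0.23 in replicates 1 to 4, so replicate 2 lay on the other side of 0. The median of their means was 0.19, and it was 0.11 with the scanner values, 0.068 without replicate 3 and 0.033 without replicates 3 and 4.

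In the U2 snRNP and U2AF group 10 of 12 genes had means below 0, against 49.4% of all genes. The other 2 had means above 0 (3 with median centring, where SNRPA1 changed sides), and 0 of 12 passed the test. By replicate 11, 8, 6 and 9 of the 12 lay below 0. On the Cy5 slide SNRPA1 (0.047) and SNRPB2 (0.029) also lay above 0. The median was -0.16, with -0.11, -0.12, -0.091 and -0.19 in the 4 replicates, -0.18 with the scanner values and -0.10 without replicates 3 and 4. SF3B1 and SF3B2, subunits of the SF3b complex that holds the branch point, had unadjusted p values under 0.05. These were 2 of 12, against 11.4% of all genes. SF3B2 measured -0.43, -0.11, -0.62 and -0.998 in replicates 1 to 4. It was below 0 in all 4 replicates and on 8 of 8 arrays, with replicate 2 the closest to 0. The mean was -0.54 ± 0.37 (adjusted p = 0.311), or 0.689 times the control level, and the slides gave -0.56 and -0.51. SF3B2 signals were 11.57, 11.77, 10.45 and 10.83 in FSH pools and 11.94, 11.91, 11.12 and 11.81 in control pools. FSH pools 3 and 4 and control pool 3 were the low ones, and the ratio was -0.27 without replicates 3 and 4.

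SF3B1 measured -0.13, -0.87, -0.57 and -0.24, a mean of -0.45 ± 0.33 (adjusted p = 0.341), with all 4 below 0 and replicate 2 the lowest. The slides gave -0.25 and -0.66, and the other SF3B1 probes disagreed in sign, at -0.40 ± 0.20 and 0.23 ± 0.24. SF3B3, another large SF3b subunit, measured -0.13, 0.11, -0.46 and -0.84, a mean of -0.33 ± 0.41 that was -0.16 without replicate 4 and -0.010 without replicates 3 and 4. SF3B4, which touches the RNA beside the branch point, averaged -0.11 ± 0.20. SF3B5, a small SF3b subunit, measured -0.11, 0.11, 0.27 and -1.20, a mean of -0.23 ± 0.66 in which replicate 4 set the sign, with 0.092 without it and 0.0018 without replicates 3 and 4. Its signals were 9.76, 10.15, 8.52 and 8.53 in FSH pools and 9.97, 10.10, 8.36 and 9.66 in control pools, again with FSH pools 3 and 4 and control pool 3 low.

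The SF3a complex, which joins SF3b to the U2 core, gave means of -0.20 ± 0.16 for SF3A1, 0.094 ± 0.19 for SF3A2 and -0.20 ± 0.084 for SF3A3. SF3A1 and SF3A3 were below 0 in all 4 replicates, and SF3A3 on 8 of 8 arrays. Without replicates 3 and 4 SF3A1 gave -0.075 and SF3A3 gave -0.22. SNRPA1 (U2-A′) and SNRPB2 (U2-B″), which bind U2 RNA together, averaged -0.072 ± 0.16 and -0.088 ± 0.24. U2AF2, the large subunit of the U2AF dimer that reads the pyrimidine tract, measured 0.11, -0.13, 0.32 and 0.35. Its mean of 0.16 ± 0.22 was the largest of the group (adjusted p = 0.611), and it was -0.0084 without replicates 3 and 4. U2AF1, the small subunit that reads the intron's last bases, averaged -0.083 ± 0.21.

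**Figure D3:**
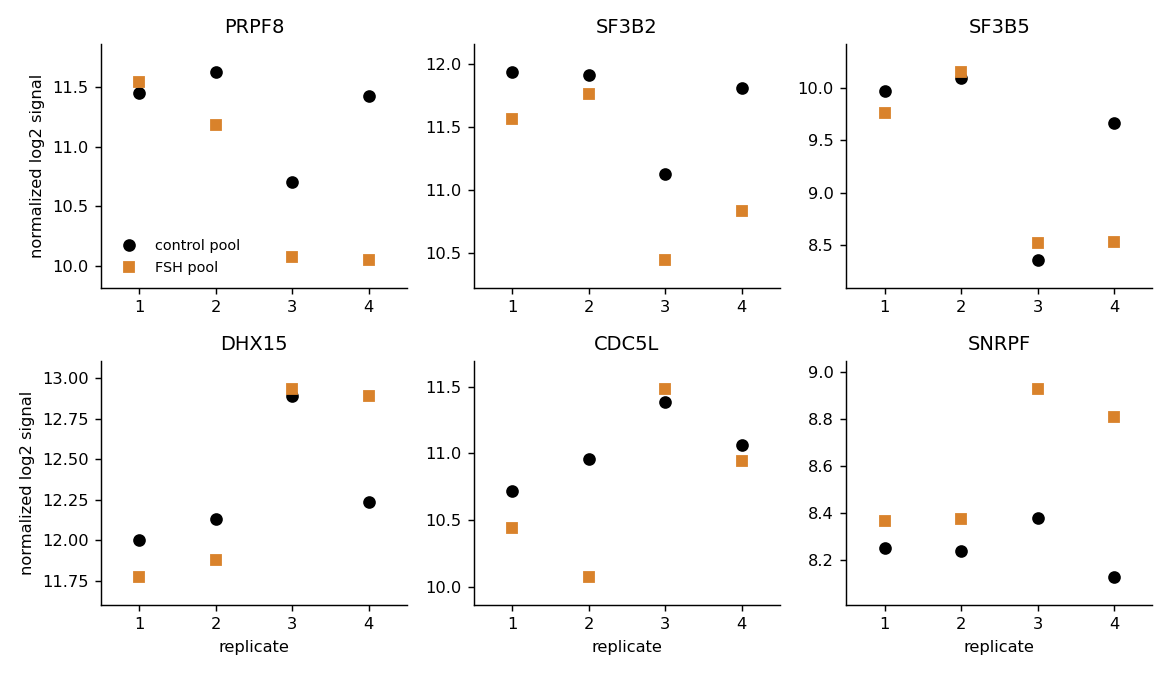
Normalized log2 signal of 6 members in each pool, with the replicate on the horizontal axis, control pools as black circles and FSH pools as orange squares. PRPF8, SF3B2 and SF3B5 were low and DHX15 high in FSH pools 3 and 4 and control pool 3. CDC5L was lowest in FSH pool 2 at 10.07, and SNRPF was highest in FSH pools 3 and 4 at 8.93 and 8.81. Vertical axes differ between genes and do not start at 0.

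In the U4/U6.U5 tri-snRNP group, listed here with PRPF38A, 3 of 6 tested genes had means above 0, against 50.6% of all genes, and 3 below. With the scanner values 2 lay above 0. PRPF3 and PRPF6 were near 0 at 0.019 and 0.025, while the 3 below lay at -0.64, -0.46 and -0.30. Of the 6 tested genes, 0 passed the adjusted test. An unadjusted p under 0.05 was found for 4 of these 6 genes, against 11.4% of all genes. Without replicates 3 and 4 the count over all members dropped from 8 to 3. Over all genes it also fell, from 728 higher and 677 lower to 393 and 634. PRPF8, the large U5 protein at the catalytic centre, measured 0.097, -0.51, -0.69 and -1.45 in replicates 1 to 4. Replicate 1 lay above 0 and replicate 4 was the lowest. The mean was -0.64 ± 0.64 (adjusted p = 0.403), or 0.642 times the control level, with -0.37 without replicate 4 and -0.21 without replicates 3 and 4. PRPF8 signals were 11.54, 11.18, 10.07 and 10.05 in FSH pools and 11.45, 11.63, 10.70 and 11.42 in control pools. The groups overlapped, with FSH pools 3 and 4 below every control pool and FSH pool 1 above 3 of them.

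EFTUD2, the U5 GTPase that binds PRPF8, measured -0.19, -0.33, -0.73 and -0.61, below 0 in all 4 replicates and on 8 of 8 arrays. The mean was -0.46 ± 0.25 (adjusted p = 0.299), the lowest adjusted p of the members tested. Its slides gave -0.22 and -0.71, the scanner values gave -0.10, and without replicates 3 and 4 the ratio was -0.26. PRPF4, a U4/U6 protein, measured -0.17, -0.0096, -0.50 and -0.53, a mean of -0.30 ± 0.25 (adjusted p = 0.418), with all 4 below 0 and replicate 2 close to it. Without replicates 3 and 4 its ratio was -0.091.

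PRPF38A, which joins the spliceosome before activation, was on the other side of 0 and had a narrow spread, with 0.39, 0.23, 0.24 and 0.31 in replicates 1 to 4. All 4 replicates and all 8 arrays lay above 0. The mean was 0.29 ± 0.075 (adjusted p = 0.312), or 1.23 times the control level. It was 0.16 with the scanner values, and the other 2 PRPF38A probes gave 0.12 and 0.023. PRPF3, the partner of PRPF4 on U4/U6, averaged 0.019 ± 0.33, and PRPF6, which bridges U5 and U4/U6, averaged 0.025 ± 0.28. The sign of PRPF3 turned under 6 of 15 other settings and that of PRPF6 under 3 of 14. PRPF31, a protein of the U4 core, exceeded the limit on 1 of 8 arrays for FSH and 3 for control and was not tested.

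Among the Prp19 complex and its associated proteins, 8 of 10 tested genes had means below 0, against 49.4% of all genes, and 2 above. The median was -0.11 (-0.016 without replicate 2), and 0 passed the test. BUD31, a small protein of the activated spliceosome, measured 0.00095, 0.70, 0.35 and 0.24. All 4 were above 0, though replicate 1 hardly so, and the mean was 0.32 ± 0.29 (adjusted p = 0.424), with 0.17 from the scanner values. CDC5L, a scaffold of the Prp19 complex, measured -0.28, -0.82, 0.086 and -0.015, a mean of -0.26 ± 0.41 (adjusted p = 0.584) to which replicates 1 and 2 gave most, with -0.071 without replicate 2 and -0.55 without replicates 3 and 4. Its signals were 10.44, 10.07, 11.48 and 10.95 in FSH pools and 10.72, 10.96, 11.39 and 11.06 in control pools, so the groups overlapped.

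PRPF19, the ubiquitin ligase that names the complex, averaged -0.10 ± 0.18. PLRG1, its WD-repeat partner, averaged 0.0093 ± 0.17, and its sign turned under 4 of 15 other settings. CRNKL1, which has repeats that hold the activated complex together, averaged -0.21 ± 0.21 and was below 0 in all 4 replicates and on 8 of 8 arrays (adjusted p = 0.507), with -0.12 without replicate 4 and -0.064 without replicates 3 and 4. AQR, a helicase bound to the intron, averaged -0.22 ± 0.21, and -0.067 without replicates 3 and 4. SNW1, which threads through the catalytic core, averaged -0.10 ± 0.32. PPIL1, a prolyl isomerase, averaged -0.12 ± 0.27, and SYF2, a member of the activated complex, averaged -0.16 ± 0.56, with 0.080 without replicate 2 and -0.43 without replicates 3 and 4. XAB2, the counterpart of yeast Syf1, averaged -0.027 ± 0.17, with its sign turned under 5 of 14 other settings. ISY1, a partner of XAB2 in the activated complex, exceeded the limit on 1 of 8 arrays for FSH and 3 for control and was not tested. SLU7 and CDC40, which help the exons to join, averaged -0.044 ± 0.13 and -0.0094 ± 0.45.

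The slides were compared gene by gene. Of the 41 tested members other than GPKOW, 0 differed between slides at an adjusted p of 0.05, against 8.06% of all genes. At an unadjusted p under 0.05, 6 of 41 differed, against 25.1% of all genes. The lowest adjusted p values were 0.0588 for SNRPA, 0.0713 for PRPF3, 0.0916 for SF3B1, 0.0989 for SYF2 and 0.117 for EFTUD2. The difference of the Cy5 slide minus the Cy3 slide was -0.48 for SNRPA, which changed sign, and 0.49 for EFTUD2. With the scanner values 16 of the 41 differed between slides, against 34.1% of all genes. SNRPF, SF3B2 and PRPF8 gave near values on both slides, with 0.73 and 0.57, -0.56 and -0.51, and -0.70 and -0.58.

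**Figure D4:**
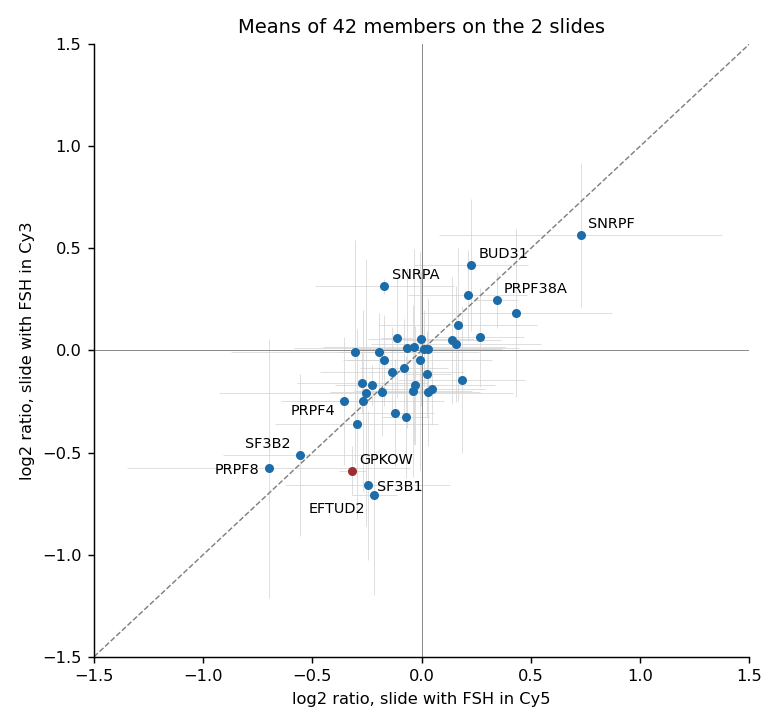
Mean log2 ratio of FSH over control of 42 members on the slide with FSH in Cy5 (horizontal) against the slide with FSH in Cy3 (vertical), each over 4 arrays with SD as thin lines. The dashed line marks equal values. GPKOW (red) lies below it at -0.32 and -0.59, and SNRPA lies above it at -0.17 and 0.31.

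The spread between pools was wider for these genes than for all genes, as it was for other splicing lists. The median range of the signal over 4 pools was 0.496 in FSH pools and 0.316 in control pools for the 42 members, against 0.239 and 0.177 for all genes. The same medians were 0.622 and 0.460 for the other snRNP proteins, 0.754 and 0.377 for the LSM proteins, 0.626 and 0.307 for the hnRNP proteins, and 0.701 and 0.578 for the exon junction complex. These ranges were not matched for brightness. Under a stricter filter for dim probes 36 of the 42 members remained, against 7447 of all 12328 genes. Over FSH pools the dim members PRPF6 and XAB2 had ranges of 0.055 and 0.060. Among bright members PRPF8 had 1.49, but SNRPA1 had 0.149. The part of brightness in the wider spread was not tested. The median SD of the ratio between replicates was 0.26 for the members and 0.22 for all genes. PRPF38A had an SD of 0.075 and SF3A3 of 0.084, while PRPF8 had 0.64, SF3B5 0.66 and SYF2 0.56. GPKOW had 0.081, but it was chosen for a low p, which favours a small SD. Where a gene had several tested probes, the probes shared a sign in 7 of 11 members, and the 4 exceptions were CDC40, SF3B1, SNRPA and SNRPA1.

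Genes of 10 related lists were measured beside the members. Of 138 tested genes outside the member set, 0 passed the limma test and the median was -0.0087. An unadjusted p under 0.05 was found for 10 higher and 10 lower genes, or 14.5%, near the 11.4% of all genes (5.91% higher and 5.49% lower). Some genes stand in more than 1 list. For the counts by sign below, 50.6% of all genes had means above 0 and 49.4% below. Of the other snRNP proteins 19 of 20 were tested, 8 with means above 0 and 11 below, with a median of -0.071. The 2 with the lowest p were SNRNP200, the U5 helicase that unwinds U4/U6, and SNRNP70, the main U1 protein. SNRNP200 gave -0.65 ± 0.40 (adjusted p = 0.299) and SNRNP70 gave -0.30 ± 0.27 (adjusted p = 0.436).

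The LSM proteins, which ring U6 RNA as Sm proteins ring the others, had 6 of 7 tested, 5 above 0 and 1 below. Their median was 0.26, with 0.16 from the scanner values and 0.042 without replicates 3 and 4. LSM2 gave 0.31 ± 0.31 (adjusted p = 0.453) and LSM4 gave 0.28 ± 0.30 (adjusted p = 0.473). SR proteins, which bind exonic enhancers, had 12 of 13 tested, 9 above 0 and 3 below, with a median of 0.20. Over the replicates that median was 0.031, 0.25, 0.070 and 0.41, and the slides gave 0.071 and 0.28. SFRS7 (SRSF7) gave 0.33 ± 0.16 (adjusted p = 0.324) and SFRS1 (SRSF1) gave 0.36 ± 0.23 (adjusted p = 0.343).

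The remaining lists had medians from -0.086 to 0.031. Activation and second-step factors outside the members had 26 of 33 tested and a median of -0.086. CWC25 was at -0.46 ± 0.25 (adjusted p = 0.299) and SRRM2 at -0.30 ± 0.24 (adjusted p = 0.403). The hnRNP proteins, which coat nascent RNA, had 22 of 22 tested and a median of 0.031, with HNRNPA1 at 0.50 ± 0.23 (adjusted p = 0.299) and HNRNPU at -0.40 ± 0.29 (adjusted p = 0.348). HNRNPA1 has many near-identical copies, so its probe can bind more than 1 transcript. The exon junction complex had 11 of 11 tested and a median of 0.025, with its core subunits MAGOH at 0.40 ± 0.37 (adjusted p = 0.405) and RBM8A at 0.30 ± 0.31 (adjusted p = 0.466). Minor spliceosome proteins had 8 of 9 tested and a median of -0.059, with SCNM1 at -0.29 ± 0.34 (adjusted p = 0.499) and ZMAT5 at 0.16 ± 0.13 (adjusted p = 0.562). The snRNP assembly factors had 12 of 15 tested and a median of -0.032. The import adaptor SNUPN was at -0.30 ± 0.21 (adjusted p = 0.396) and the Cajal body protein COIL at -0.37 ± 0.36 (adjusted p = 0.431). Kinases of splicing factors had 8 of 10 tested and a median of -0.056, with CLK1 at 0.79 ± 0.74 (adjusted p = 0.375) and CLK4 at 0.23 ± 0.25 (adjusted p = 0.523). Other G-patch proteins, which share the helicase-binding motif of GPKOW, had 17 of 21 tested, 5 above 0 and 12 below, and a median of -0.057, with RBM10 at -0.26 ± 0.18 (adjusted p = 0.422) and PINX1 at -0.31 ± 0.31 (adjusted p = 0.455).

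**Figure D5:**
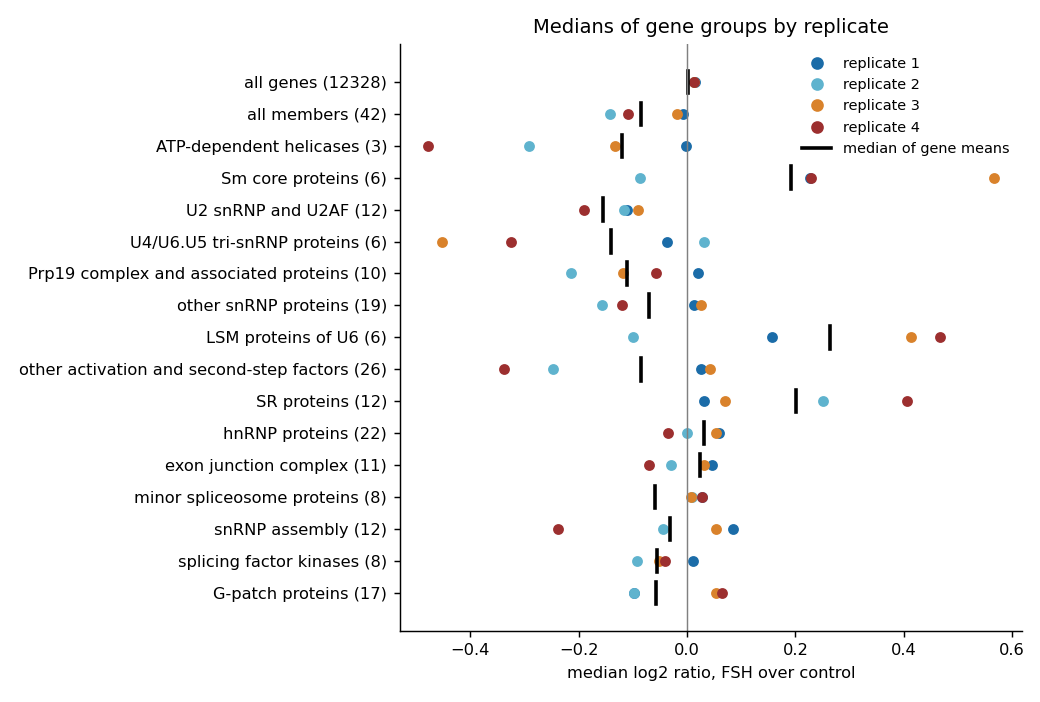
Median log2 ratio of FSH over control in each gene group, with the number of tested genes in brackets. Points are the medians in replicates 1 to 4 and bars are the medians of the gene means. Medians of all genes lie at 0.012 to 0.015 in each replicate, those of Sm proteins reach from -0.086 to 0.57, and those of the U2 group stay between -0.19 and -0.091.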

How the data were processed

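RNA of cumulus cell pools underwent 2 rounds of linear T7 amplification and non-enzymatic Cy3 or Cy5 labelling, per the labels' protocols. The deposited scanner files give for 45220 spots per array the intensity and the background around it in both channels. The authors' deposited series matrix holds normalized log2 ratios of FSH over control for 43794 probes. It equals the authors' Cy5-over-Cy3 table after turning, with a largest difference of 5e-06, and its r with ratios normalized anew from the scanner files was 0.537 to 0.804 per array. How the authors corrected background and normalized, and the genome build, are not given in the sources used here.

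Log2 ratios of the series matrix were averaged over the 2 dye orientations of a replicate and tested with limma 3.58.1 (lmFit with an intercept, eBayes) in R 4.3.3 over 1 probe per gene, the brightest. Adjustment was by Benjamini-Hochberg at 0.05 over 12328 genes. The fit was tested on simulated data. A probe was kept when its intensity averaged above the mean plus 2 SD of 153 negative control spots in at least 3 of 4 replicates of either channel, which left 32229 probes. Pool signals came from the scanner files after normexp (offset 50), loess and quantile normalization of average intensities, and are relative values within a probe. Spots flagged as outliers were set missing there, 17 to 57 per array, none of them on a member probe. The number of arrays limits the precision.

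Symbols came from the platform annotation, which names 21790 probes and leaves 22004 unnamed. All 45 member symbols were found in the RefSeq gene table. The members, the lists and the rules were chosen with earlier results of these data known. Every replicate is given for GPKOW, DHX16, the largest and smallest mean of each role group of 3 or more, and members with an unadjusted p under 0.05. From each related list the 2 lowest p are named. Pool signals of genes other than GPKOW, and single replicates of other members, were picked once the values were known. Up to 15 alternatives were run, among them other values, filters, slides, left-out replicates and the 8 arrays with a block (statmod 1.5.0).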

Additional observations from a re-analysis of the deposited data

Results flagged for a closer look

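In 3 of the 42 tested members 1 replicate stood far from the other 3, with a gap to its neighbour that took more of the group's range than Dixon's critical value for 4 samples. DHX15 in replicate 4 gave 0.65 (gap share 0.881). SF3A2 in replicate 2 gave 0.38 (gap share 0.844), and PLRG1 in replicate 1 gave 0.26 (gap share 0.874). Chance flags about 1 in 20 groups, and 5.12% of all genes were flagged.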

How the results depend on the processing

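No gene passed the adjusted test with any other values, filter, probe rule or single slide that was tried, nor without replicate 1, 2 or 4. With the 8 arrays taken singly and the replicate block as a random effect, 229 genes passed, and 173 with a dye term added. There were 17 without replicates 3 and 4, and 0 to 19 when 1 replicate was left out (19 without replicate 3). With the replicate block 1 member passed, SF3B2 at an adjusted p of 0.0476, and 0 with the dye term. GPKOW was not tested. As a check of pairing on single channels, pools of the same number correlated at r = 0.684, 0.668, 0.597 and -0.0333 across genes, shared arrays included, and FSH pools 1 to 3 but not pool 4 correlated best with their own number. The count of members at an unadjusted p under 0.05 was 8 as reported, 5 with median centring, 5 with no replicate block on single channels, 3 without replicates 3 and 4, and 5 to 8 when 1 replicate was left out. Over all genes the higher and lower counts were 728 and 677 as reported and 763 and 229 with median centring. They were 386 and 468 with no replicate block, and 393 and 634 without replicates 3 and 4. With 1 replicate left out they ranged from 400 to 856. The median of the 42 members ranged from -0.12 to -0.016 over left-out replicates, and stayed below 0 under all 15 alternatives. These medians include GPKOW, which was chosen for its low p in this contrast. The block fits cannot change the median, so its constant sign does not measure stability. GPKOW gave -0.25 as the mean of its probes, -0.32 on the slide with FSH in Cy5 and -0.59 on the other. The share of tested genes that differed between slides was 8.06% as reported, 34.1% with loess, 0.539% with median centring and 2.56% to 4.32% with 1 replicate left out. The members among them numbered 16 with loess, 1 with no filter (PRPF31) and 2 under the stricter filter (PRPF3 and SNRPA). The cause of these shifts was not tested. Of 609 single values of members other than GPKOW under alternatives, 9 moved by 1 SD or more. Leaving out replicates cannot move a mean of 4 by that much, and the filters and block fits do not change it. This count therefore does not measure stability. Of 225 group medians, 19 moved by more than the SD of the medians between replicates. Of the 42 members, 20 kept their sign under every alternative that gave a value. Dim signals limit EFTUD2, PRPF6, SF3A2, SF3B4, PRPF19, PLRG1, SNRPC, XAB2 and SLU7, which were above the limit on fewer than all 16 channels.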
